A study of Homo sapiens with 6 samples.

Results

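The genes described here are the 40 genes of DNA replication and S phase that were chosen by name from the machinery that copies the genome: the MCM helicase and its loaders, the factors that activate it, the sliding clamp, the polymerases, the enzymes that join Okazaki fragments and make deoxynucleotides, E2F1 with the E cyclins, and the chromatin factors that follow the fork. All 40 were on the array, out of 19775 genes with a probe set annotated to 1 gene, and together they had 77 of the 54613 probe sets tested. Each gene is given by its brightest single-gene probe set (the highest mean over the 6 arrays). Total RNA came from MCF-10A, a human line of mammary epithelial cells that is immortalized but not transformed and needs EGF to grow. CRB3-expressing cells had been infected with a retrovirus encoding CRB3 (in the methods, human CRB3 with a myc tag at the amino terminus), and vector control cells with the control retrovirus. Per the labels, both lines were selected with puromycin, kept in the usual growth medium of the line and harvested as proliferating monolayers at 70% confluence, with 3 arrays per group. Whether the arrays of a group trace back to separate infections is not stated in the sources used here, and the p-values therefore measure the spread between these RNA samples only.

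DNA is copied once per cell cycle from origins that are licensed in G1, when ORC, CDC6 and CDT1 load the MCM2-7 helicase, and fired in S phase, when CDC45 and GINS turn that helicase on. Polymerases, a ring-shaped clamp and its loader then extend the strands from deoxynucleotides made by dedicated enzymes. Transcription of most of these genes is switched on late in G1 by E2F factors, which are released once cyclin-dependent kinases phosphorylate the retinoblastoma protein, and their transcripts are therefore widely read as marks of proliferating cells. The study asked how a polarity protein bears on the proliferation of mammary cells. The comparison here gives the level of this machinery in dividing monolayers with and without ectopic CRB3, which the study describes as grown with EGF. The study reported the added proliferation with CRB3 in acini grown in basement membrane culture and in monolayers kept without EGF. These arrays do not cover those conditions. In RNA from whole cultures, fewer cells in S phase and less transcript per cell cannot be told apart.

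E2F factors recognize a short element in DNA, and the promoter stretches that hold its letters are shown first because this is the switch the genes are known to share. RefSeq promoter windows on GRCh38.p14 (250 bases before and 50 after each annotated start) were found for 35 of the 40 genes and searched on both strands for 4 spellings of the E2F element, TTTCCCGC, TTTGGCGC, TTTGCCGC and TTTCGCGC. Of the 35 genes, 19 (54.3%) held at least 1 of them, against 3.99% of the 27305 genes with a window. The share was also high, 17 of 43 (39.5%), among the other replication genes described further below. Among the mitotic genes it was 2 of 34 (5.88%). No window was found for MCM4, MCM5, GINS4, POLD3 and CCNE2. Of the 27 matches, 18 began within 60 bases of the start, and 5 windows, those of E2F1, MCM2, MCM3, MCM6 and MCM7, held more than 1. The spellings can overlap each other on opposite strands, as they did in MCM2 and MCM6, so matches are not separate elements. A match is a description of these letters and not a bound site.

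The 6 stretches below are from the members with the smallest unadjusted p-values in the comparison that held a match, MCM7 left out because its window overlaps AP4M1. Each runs from 200 bases before to 30 bases after the start, 5′ to 3′ along the gene, with the E2F letters in capitals (GCGCCAAA is TTTGGCGC read on the opposite strand). They lie on GRCh38.p14 at chr14:49688185-49688414 on the minus strand for POLE2, chr6:52284713-52284942 (minus) for MCM3, chr20:25407473-25407702 (plus) for GINS1, chrX:24693718-24693947 (plus) for POLA1, chr12:132687313-132687542 (minus) for POLE and chr19:48170315-48170544 (minus) for LIG1. All lie upstream of and across the annotated start of their gene, and that of GINS1 also lies within LOC105372581.
POLE2: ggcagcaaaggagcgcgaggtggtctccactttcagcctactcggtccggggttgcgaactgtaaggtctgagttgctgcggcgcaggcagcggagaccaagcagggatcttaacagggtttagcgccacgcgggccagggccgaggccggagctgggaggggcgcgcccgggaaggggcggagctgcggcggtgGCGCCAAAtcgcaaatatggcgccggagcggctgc
MCM3: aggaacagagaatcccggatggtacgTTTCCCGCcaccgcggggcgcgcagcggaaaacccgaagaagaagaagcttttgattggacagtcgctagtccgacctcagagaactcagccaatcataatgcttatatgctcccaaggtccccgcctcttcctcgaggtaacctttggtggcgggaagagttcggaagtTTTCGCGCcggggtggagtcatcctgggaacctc
GINS1: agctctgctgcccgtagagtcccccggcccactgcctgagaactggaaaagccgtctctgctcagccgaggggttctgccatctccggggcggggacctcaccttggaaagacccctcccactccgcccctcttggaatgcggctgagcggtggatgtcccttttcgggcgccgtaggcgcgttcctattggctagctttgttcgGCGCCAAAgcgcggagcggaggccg
POLA1: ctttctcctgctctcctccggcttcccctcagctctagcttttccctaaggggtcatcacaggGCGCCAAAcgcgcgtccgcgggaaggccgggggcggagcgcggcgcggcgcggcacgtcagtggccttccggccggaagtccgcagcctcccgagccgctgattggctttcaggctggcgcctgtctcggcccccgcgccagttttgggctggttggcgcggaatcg
POLE: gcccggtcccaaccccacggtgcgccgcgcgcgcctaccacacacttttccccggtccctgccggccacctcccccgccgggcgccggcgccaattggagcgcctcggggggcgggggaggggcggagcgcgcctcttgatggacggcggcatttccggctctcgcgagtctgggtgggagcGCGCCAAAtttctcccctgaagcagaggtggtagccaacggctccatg
LIG1: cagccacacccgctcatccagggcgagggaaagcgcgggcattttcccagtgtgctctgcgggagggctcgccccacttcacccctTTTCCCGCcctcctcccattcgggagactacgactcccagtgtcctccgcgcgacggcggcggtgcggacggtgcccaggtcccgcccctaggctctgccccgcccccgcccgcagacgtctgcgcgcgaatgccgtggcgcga
The capitals stand close to the start in POLE2, GINS1 and POLE, and MCM3 has 1 match at the start and 1 near the upstream end. The matches of POLA1 and LIG1 lie farther upstream, with first bases 137 and 114 bases before the start.

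**Figure D1:**
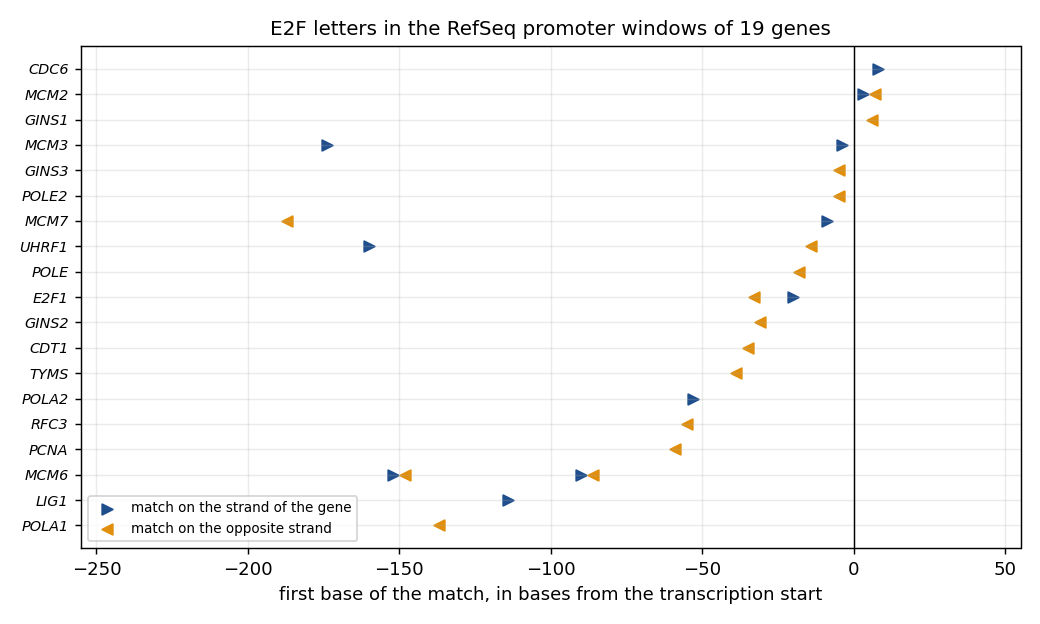
First base of each E2F match (x axis, in bases from the annotated transcription start, 250 before to 50 after) in the promoter windows of the 19 genes that held one (y axis); right-pointing marks are matches on the strand of the gene and left-pointing marks on the opposite one. Of the 27 matches, 18 lie within 60 bases of the start.

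CRB3 itself was at 7.78 ± 0.17 (SD, n = 3) in vector control cells and 12.11 ± 0.10 (SD, n = 3) in CRB3-expressing cells, 20.1-fold higher (limma adjusted p 1.83e-07), as the labels say. The 6 epithelial markers measured had means from 9.06 upward in vector control cells. Fibroblast, leukocyte and endothelial markers had vector control means between 3.38 and 8.32, with PTPRC, PECAM1 and LUM at 4.16, 6.61 and 3.38, and on these arrays no level is shown to be background. Of the 8 fibroblast markers 1 was lower past both criteria, DCN, and 3 of the 6 epithelial markers were higher, KRT14, CDH1 and KRT8. The part of such differences in the values of the replication genes was not tested. The median over all probe sets lay between 5.84 and 5.88 on the 6 arrays, and the spiked hybridization controls averaged 11.33 on vector control replicate 1 and 10.89 to 11.08 elsewhere. The reference genes GAPDH, HINT1 and PRDX6 had log2 fold changes of 0.044, 0.033 and 0.16.

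The replication genes were close to equal between the groups. Their probe sets were bright, with mean log2 values from 8.83 to 12.96, which says nothing of transcript amounts between genes. In CRB3-expressing cells 34 of the 40 genes had a negative log2 fold change, against 47.7% of all genes, but the differences were small. The median log2 fold change of the 40 genes was -0.095, a level 6.4% lower, beside 0.0066 over all genes, and the extremes were -0.20 for MCM10 and 0.099 for RRM2. None of the 40 passed both criteria of the study (more than a 1.5-fold difference at a limma adjusted p under 0.05), 0 lower against 0.465% of all genes and 0 higher against 1.43%. With no fold threshold 0 were lower (1.77% of all genes) and 0 higher (3.37%), the smallest adjusted p being 0.134 from limma for RRM1.

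At an unadjusted p under 0.05 from limma 14 genes were lower and 0 were higher, where 8.39% of all genes were lower and 10.4% higher. These 14 were RRM1, MCM10, POLE2, MCM4, MCM3, GINS1, RFC4, POLA1, MCM7, CDC45, POLE, LIG1, RFC3 and CCNE2. The count was lower whichever of the 6 arrays was left out, and each such fit also has fewer residual degrees of freedom. It was 8 without CRB3-expressing replicate 1, 8 without replicate 2 and 5 without replicate 3. Without vector control replicates 1, 2 and 3 it was 7, 4 and 5. The part of the lost degrees of freedom in these counts was not tested. The share of all genes that were lower in the same fits was 7.49%, 6.73% and 7.07% without CRB3-expressing replicates 1, 2 and 3, and 7.28%, 7.63% and 7.15% without vector control replicates 1, 2 and 3. The 3 CRB3-expressing arrays all lay below the 3 vector control arrays for 22 genes (12.1% of all genes) and above them for 1, RRM2 (14.5% of all genes).

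Because all 40 genes were bright, their share was also set beside the 5767 genes at least as bright as the dimmest of them (a mean of 8.83). Among those, 55.1% had a negative log2 fold change, 12.8% were lower and 11.9% higher at an unadjusted p under 0.05, and 20.9% were lower without overlap of the groups, with a median log2 fold change of -0.015. The negative share of the replication genes, 34 of 40, lay above both backgrounds. No test of the list as a whole was made.

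The 95% intervals give the differences in array value that the spread between these RNA samples allows. They do not bound the difference in transcript amount, which was not measured here by another method. The 95% interval of the log2 fold change, gene by gene and unadjusted, reached no farther than -0.39 (CCNE2) on the low side and 0.24 (RRM2) on the high side. All 40 intervals lay inside the 1.5-fold threshold, and the widest bound corresponds to a 1.31-fold difference. Over all 77 probe sets of these genes the intervals reached from -0.47 (the second probe set of CDT1) to 0.32 (one of RFC5), at most a 1.38-fold difference.

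**Figure D2:**
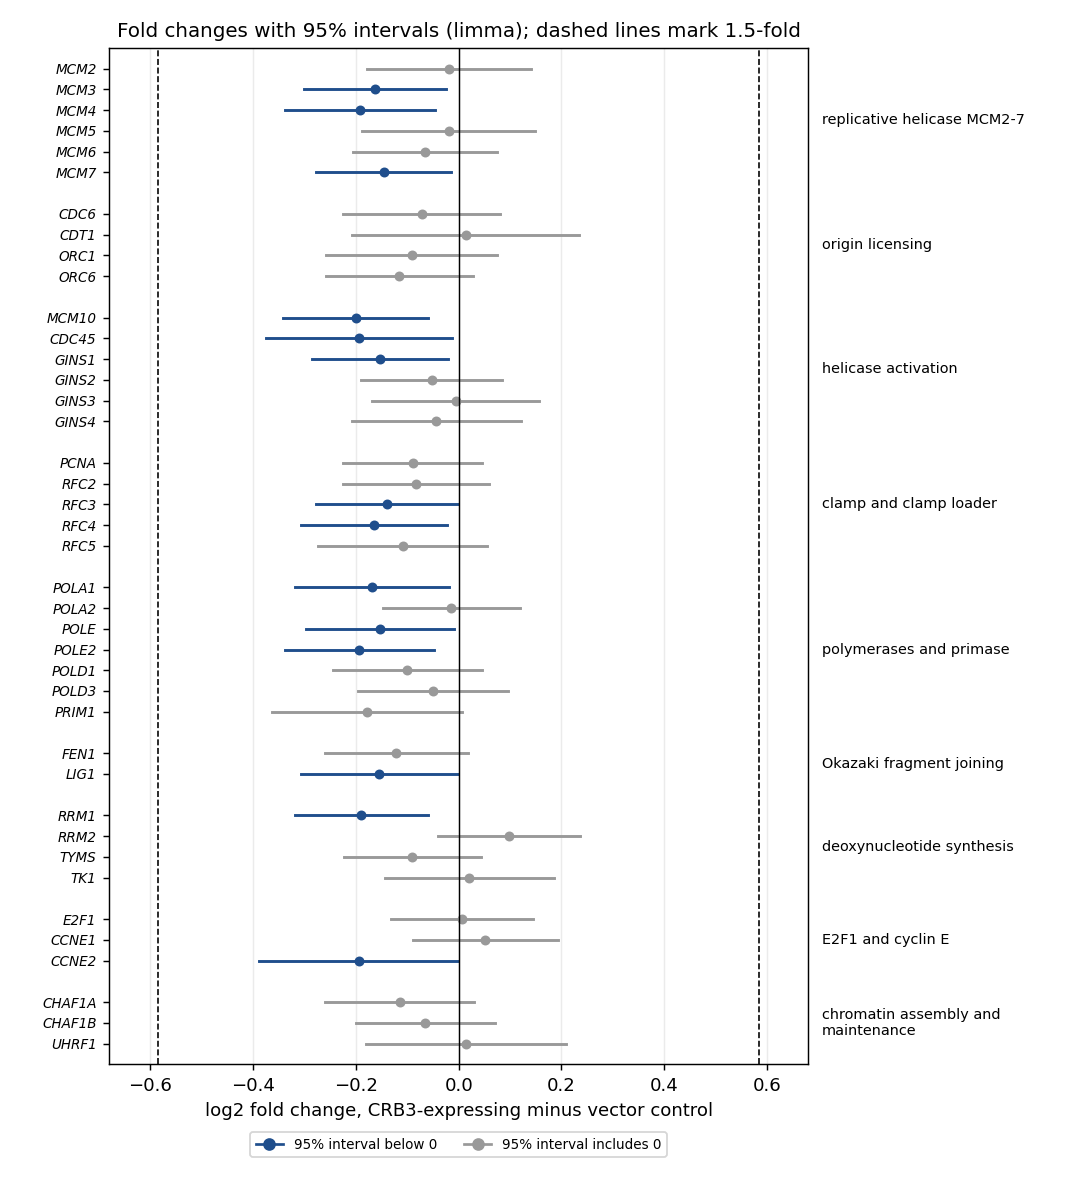
Log2 fold change of each of the 40 genes (x axis, CRB3-expressing minus vector control) with its unadjusted 95% interval from limma, in rows by role; blue where the interval lies below 0 (14 genes), grey where it includes 0, and dashed lines at a 1.5-fold difference. Every interval lies between the dashed lines, and 34 of the 40 points lie left of 0.

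Among the subunits of the MCM2-7 helicase, the ring that unwinds the parental strands, 6 of 6 had negative log2 fold changes and 3 were lower at an unadjusted p under 0.05, with a median of -0.11. Over all genes 47.7% were negative and 8.39% lower at that p, shares that also stand beside the counts by role below. MCM3 had log2 values of 11.76, 11.78 and 11.76 on the vector control arrays and 11.57, 11.67 and 11.57 on the CRB3-expressing arrays (log2 fold change -0.16 with an SE of 0.061 and a limma adjusted p of 0.229). Every CRB3-expressing array was below every control for this subunit, and the nearest arrays were 0.087 apart. MCM4 was at 10.97, 10.85 and 10.89 in vector control cells and 10.71, 10.67 and 10.76 in CRB3-expressing cells (log2 fold change -0.19 with an SE of 0.064 and a limma adjusted p of 0.177). MCM7 was at 11.50, 11.47 and 11.49 and at 11.32, 11.33 and 11.37 in the same order, again without overlap (log2 fold change -0.15, SE 0.058). The other MCM7 probe set, at a mean of 10.70, had -0.069 with overlapping groups (limma unadjusted p 0.309). MCM6, the subunit with the brightest probe set, had 12.12, 12.15 and 12.13 in vector control cells against 12.08, 12.12 and 12.002. Its second CRB3-expressing array nearly reached the lowest control, and the log2 fold change was -0.066 (SE 0.061), or -0.033 without CRB3-expressing replicate 3. MCM2 and MCM5 had overlapping groups and log2 fold changes of -0.019 and -0.020. Differences between the subunits were not tested.

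None of the 4 genes that license origins reached an unadjusted p under 0.05 in its brightest probe set, and the median of these was -0.082. ORC1 and ORC6, subunits of the origin recognition complex, had log2 fold changes of -0.091 and -0.12. CDT1, which delivers MCM2-7 to the origin, had one of 0.014, with the 2 highest of its 6 values in different groups. Its other probe set, at a mean of 9.17, had -0.26 with a limma unadjusted p of 0.024. CDC6, the ATPase that loads the helicase, was at 10.21, 10.15 and 10.18 in vector control cells and at 10.04, 10.21 and 10.07 in CRB3-expressing cells. Its replicate 2 in the CRB3-expressing group was the highest of the 6 arrays, so the groups overlapped (log2 fold change -0.072, SE 0.067). The value was -0.038 without CRB3-expressing replicate 1 and -0.12 without replicate 2. The other CDC6 probe set, at a mean of 10.03, had -0.13 with no overlap of the groups (limma unadjusted p 0.062).

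Helicase activation held the lowest value of the set. MCM10, which is needed for the loaded helicase to start unwinding, had log2 values of 9.90, 9.86 and 9.84 in vector control cells and 9.73, 9.66 and 9.61 in CRB3-expressing cells, a level 12.96% lower (log2 fold change -0.20 with an SE of 0.062 and a limma adjusted p of 0.143). The groups did not overlap. Its other probe sets had -0.23 and -0.038, and the last is the one that remains when probe sets shared between transcripts are left out. CDC45, a subunit of the active helicase, was at 9.73, 9.92 and 9.79 against 9.65, 9.70 and 9.50 (log2 fold change -0.19, SE 0.080), and CRB3-expressing replicate 3 was the lowest of all 6 arrays. GINS1, a subunit of the GINS complex in the same helicase, was at 10.57, 10.50 and 10.53 against 10.39, 10.39 and 10.37, with a tight group on either side (log2 fold change -0.15, SE 0.058). Its partner GINS2 had 10.47, 10.56 and 10.50 in vector control cells and 10.49, 10.47 and 10.43 in CRB3-expressing cells, which overlap (log2 fold change -0.053, SE 0.060, or -0.027 without vector control replicate 2). GINS3 and GINS4 had log2 fold changes of -0.0059 and -0.043, so GINS1 stood lowest of the 4 subunits. Whether GINS1 differed from the other subunits was not tested.

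PCNA, the sliding clamp that tethers polymerases to DNA, was at 12.96, 13.01 and 13.05 in vector control cells and 12.93, 12.91 and 12.90 in CRB3-expressing cells. The CRB3-expressing arrays were all below the controls, but by little (log2 fold change -0.090 with an SE of 0.059 and a limma adjusted p of 0.521). RFC4, a subunit of the loader that opens the clamp, was at 10.83, 10.90 and 10.86 against 10.75, 10.71 and 10.63 (log2 fold change -0.16, SE 0.063). The other loader subunits RFC2, RFC3 and RFC5 had log2 fold changes of -0.083, -0.14 and -0.11. All 5 genes of this group were negative and 2, RFC3 and RFC4, were lower at an unadjusted p under 0.05.

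The polymerase and primase genes had the lowest median of any role with more than 2 genes, -0.15, with 7 of 7 negative. POLE2, a subunit of the leading-strand polymerase epsilon, was at 9.19, 9.30 and 9.26 in vector control cells and 9.05, 9.11 and 9.01 in CRB3-expressing cells (log2 fold change -0.19 with an SE of 0.064 and a limma adjusted p of 0.170). POLE, the catalytic subunit of the same enzyme, was at 9.13, 9.17 and 9.07 against 8.91, 9.02 and 8.98 (log2 fold change -0.15, SE 0.064). POLA1, the catalytic subunit of polymerase alpha, was at 8.97, 9.07 and 9.01 against 8.91, 8.86 and 8.77 (log2 fold change -0.17, SE 0.066). In these 3 genes no CRB3-expressing array reached a control. PRIM1, the primase that lays down the RNA primer, was at 10.11, 10.28 and 10.28 in vector control cells and 10.15, 10.06 and 9.92 in CRB3-expressing cells. Vector control replicate 1 of PRIM1 lay inside the CRB3-expressing range, and the log2 fold change of -0.18 (SE 0.081) had a 95% interval that just included 0 (-0.36 to 0.0063). Without CRB3-expressing replicate 3 the value was -0.12. POLA2, the accessory subunit of polymerase alpha, had a log2 fold change of -0.014. POLD1 and POLD3 of the lagging-strand polymerase delta had values of -0.100 and -0.050.

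Of the enzymes that finish Okazaki fragments, FEN1, the flap nuclease, was at 11.34, 11.39 and 11.41 in vector control cells and 11.26, 11.31 and 11.21 in CRB3-expressing cells (log2 fold change -0.12, SE 0.062). LIG1, the ligase that seals the nicks, was at 9.45, 9.46 and 9.41 against 9.29, 9.19 and 9.37 (log2 fold change -0.15, SE 0.067). Both genes had separate groups, and LIG1 was lower at an unadjusted p under 0.05.

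The genes of deoxynucleotide synthesis pointed in both directions. RRM1, the large subunit of ribonucleotide reductase, had the smallest p-value of the 40, with log2 values of 11.79, 11.78 and 11.76 in vector control cells and 11.60, 11.56 and 11.60 in CRB3-expressing cells (log2 fold change -0.19 with an SE of 0.057 and a limma adjusted p of 0.134). The closest CRB3-expressing and control arrays were 0.16 apart, while the arrays of a group differed by at most 0.041. RRM1 passed an adjusted p of 0.05 under 4 other settings of the fit, without reaching the fold threshold. RRM2, the small subunit that limits the activity of the enzyme in S phase, pointed the other way, at 12.88, 12.86 and 12.82 in vector control cells and 12.91, 13.003 and 12.93 in CRB3-expressing cells (log2 fold change 0.099 with an SE of 0.061 and a limma adjusted p of 0.481). It was the single gene of the 40 whose CRB3-expressing arrays all lay above the controls, and the difference between RRM1 and RRM2 was not tested. TYMS, which makes thymidylate, had a log2 fold change of -0.090 with no overlap of the groups, and TK1, the thymidine kinase of the salvage pathway, had one of 0.021 with overlap.

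E2F1, the transcription factor that turns this program on, was close to equal, at 8.83 ± 0.042 (SD, n = 3) in vector control cells and 8.84 ± 0.042 (SD, n = 3) with CRB3, and its 95% interval ran from -0.13 to 0.14. CCNE1, the E cyclin that drives entry into S phase with CDK2, had a log2 fold change of 0.052 (SE 0.062). Its paralog CCNE2 was at 9.43, 9.58 and 9.47 in vector control cells and 9.41, 9.14 and 9.35 in CRB3-expressing cells. The second CRB3-expressing array lay well below the other 2, which sat close under the controls (log2 fold change -0.19 with an SE of 0.085 and a limma adjusted p of 0.303). Without CRB3-expressing replicate 2 the log2 fold change of CCNE2 was -0.11.

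Among the factors that rebuild chromatin behind the fork, CHAF1A, a subunit of the histone chaperone CAF-1, was at 9.41, 9.51 and 9.42 in vector control cells and 9.34, 9.37 and 9.28 in CRB3-expressing cells (log2 fold change -0.12 with an SE of 0.064). Its partner CHAF1B had a log2 fold change of -0.065, and neither gene had overlapping groups. UHRF1, which directs maintenance of DNA methylation to newly copied DNA, was at 11.53, 11.79 and 11.65 in vector control cells and 11.69, 11.76 and 11.56 in CRB3-expressing cells. Its groups overlapped almost entirely (log2 fold change 0.014, SE 0.085), and the sign turned negative without CRB3-expressing replicate 2 (-0.030) or without vector control replicate 1 (-0.050).

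**Figure D3:**
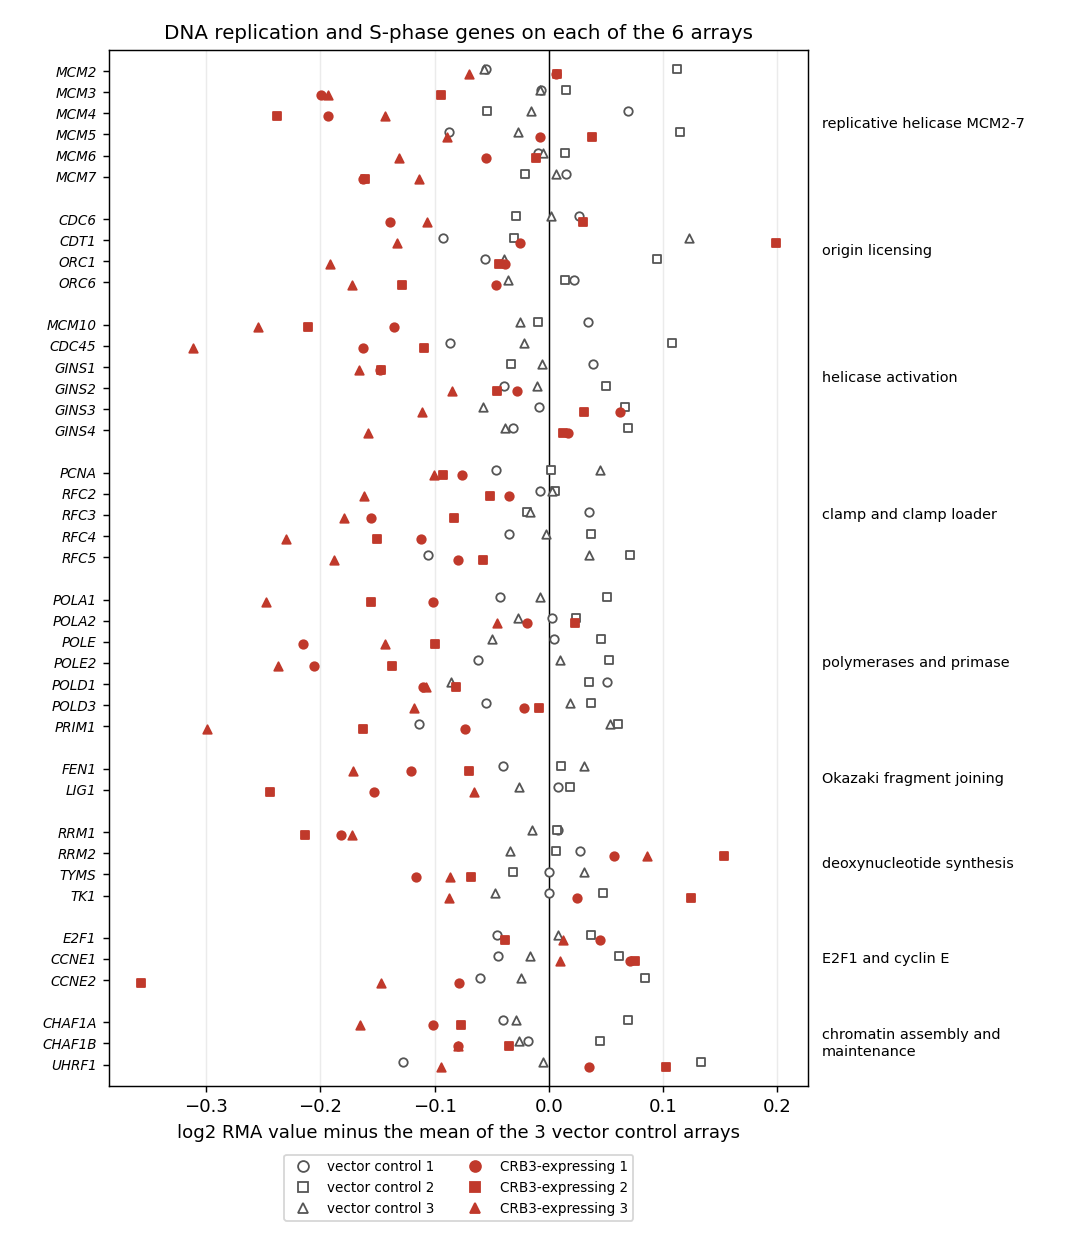
Log2 RMA value of each gene on each array minus the mean of the 3 vector control arrays (x axis), in rows by role; open grey marks are vector control and filled red marks are CRB3-expressing arrays, with circles, squares and triangles for replicates 1, 2 and 3. Red marks lie left of the grey ones without overlap for 22 genes and right of them for RRM2, and the red triangles of CRB3-expressing replicate 3 are the lowest mark for 26 genes.

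The arrays did not contribute equally. Averaged over the 40 genes, CRB3-expressing replicate 3 was 0.14 below the vector control mean on the log2 scale and the other CRB3-expressing arrays 0.077 and 0.064 below it, while the vector control arrays lay between -0.024 and 0.034. CRB3-expressing replicate 3 gave the lowest of the 6 values for 26 genes, and vector control replicate 2 the highest for 23. Over the 5767 bright genes the same averages lay between -0.017 and 0.0097 on all 6 arrays. The median log2 fold change of the 40 genes was -0.086 without CRB3-expressing replicate 3 and -0.084 without vector control replicate 2.

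Most genes with several probe sets had the same sign in all of them. The 37 probe sets other than the brightest, from 24 genes, had log2 fold changes between -0.29 and 0.14, of which 32 were negative, 12 were lower and 0 higher at an unadjusted p under 0.05 from limma. Of all 54613 probe sets tested, 49.6% were negative, 8.16% lower and 8.15% higher. The 3 further MCM4 probe sets at means of 9.61 to 10.71 had log2 fold changes between -0.21 and -0.18, close to the brightest. The second probe sets of RRM1 (-0.16), RRM2 (0.081), FEN1 (-0.16) and CCNE2 (-0.18) also kept the direction and nearly the size of the first. One of the 77 probe sets reached an adjusted p under 0.05, the second of CHAF1A, at -0.29 (SE 0.064, limma adjusted p 0.0459), and none passed the fold threshold.

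Other genes disagreed between probe sets. For CHAF1A the brightest probe set gave -0.12, the following ones -0.29 and -0.23, and the dimmest, with a mean of 4.62, gave 0.086. CDT1 had 0.014 in the brightest, at a mean of 9.47, and -0.26 in the other, at 9.17. MCM4 had 0.14 in its dimmest probe set, at a mean of 6.52, against the values below 0 in the others. RFC5 had -0.11, -0.15 and 0.14. Of the 24 genes with several probe sets, 16 had negative values in all of them and 6 had both signs.

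**Figure D4:**
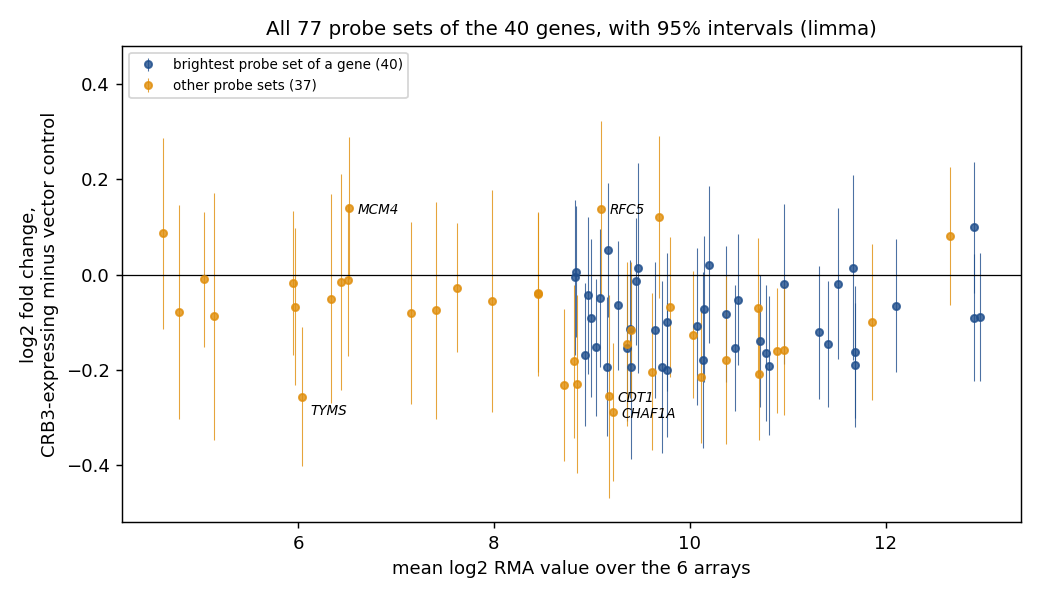
Log2 fold change (y axis, CRB3-expressing minus vector control) against the mean log2 RMA value over the 6 arrays (x axis) for all 77 probe sets of the 40 genes, with unadjusted 95% intervals from limma; blue points are the brightest probe set of each gene and orange points the other 37. The orange points spread from -0.29 (CHAF1A) to 0.14 (MCM4), and the 6 probe sets with a mean under 6 lie between -0.088 and 0.086.

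Genes with and without the E2F letters had overlapping values. The 19 genes with a match had a median log2 fold change of -0.090 and a range from -0.19 to 0.014, with 8 lower at an unadjusted p under 0.05 from limma. The 16 genes with a window and no match had a median of -0.11 and a range from -0.20 to 0.099, with 4 lower. Of all genes, 8.39% were lower at that p. RRM1 and MCM10, the genes with the smallest p-values, had no match in their windows, which says only that these letters are not there.

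The rest of the replication machinery had values from -0.35 (ATAD5) to 0.27 (POLD4), and whether they differed from the 40 genes was not tested. Of 53 other replication genes on the array, 47 had negative log2 fold changes, 18 were lower and 2 higher at an unadjusted p under 0.05 from limma, and none passed both criteria, with a median of -0.11. At an adjusted p under 0.05 from limma 2 of the 53 were lower (1.77% of all genes). These were TOP2A, the topoisomerase that untangles copied DNA, at -0.34 (SE 0.061, limma adjusted p 0.0175) and ATAD5, which unloads the clamp, at -0.35 (SE 0.072, limma adjusted p 0.0304). Of the other TOP2A probe sets, one at a mean of 10.99 had -0.47 and a dim one at 3.86 had -0.37.

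Genes of mitosis, the phase that follows, reached lower values, from -0.80 (CENPE) to 0.060 (SPC24). CENPE was at 9.19, 9.08 and 8.36 in vector control cells and 8.22, 7.81 and 8.21 in CRB3-expressing cells (limma adjusted p 0.0789). Of 40 mitotic genes 37 had negative log2 fold changes, 19 were lower and 0 higher at an unadjusted p under 0.05, with a median of -0.15. None passed both criteria, and 5 were lower at an adjusted p under 0.05 from limma (1.77% of all genes). These 5 were the kinesin KIF11 (-0.35 with an SE of 0.067, adjusted p 0.0250), HMMR (-0.40 with an SE of 0.077, adjusted p 0.0251), the kinase CDK1 (-0.30 with an SE of 0.064, adjusted p 0.0366), DLGAP5 (-0.33 with an SE of 0.069, adjusted p 0.0374) and the kinetochore protein CENPF (-0.52 with an SE of 0.12, adjusted p 0.0491). KIF11 and HMMR were named by the rule of the 2 smallest p-values, and CDK1, DLGAP5 and CENPF after their values were seen. The other CDK1 probe sets had values between -0.20 and -0.14 that were not called. The other HMMR probe set had -0.33 (limma adjusted p 0.0626). Those of CENPF had -0.65 (limma adjusted p 0.0338) and, in a dim one, -0.28 (limma adjusted p 0.255). Whether the mitotic genes differed from the replication genes was not tested.

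Upstream, 17 genes of G1 cyclins, CDKs and their inhibitors had a median log2 fold change of -0.00030. Past both criteria 2 were higher (1.43% of all genes) and 0 lower (0.465%), and 3 were higher at an adjusted p under 0.05 from limma (3.37%). CDKN1C, which encodes the CDK inhibitor p57, rose from a mean log2 value of 6.49 in vector control cells to 9.03, by 2.54 (SE 0.071, limma adjusted p 3.43e-07). Its other probe sets had 2.40, 2.44 and 1.996, and a dim one at a mean of 4.595 had -0.11. CCND2, which encodes cyclin D2, rose by 0.76 (SE 0.067, limma adjusted p 0.000305), and its other probe sets had 0.77, 0.72 and 0.22. The CDK inhibitor p21, encoded by CDKN1A, rose by 0.50 (SE 0.064, limma adjusted p 0.00285), a 1.41-fold difference that stayed under the fold threshold.

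**Figure D5:**
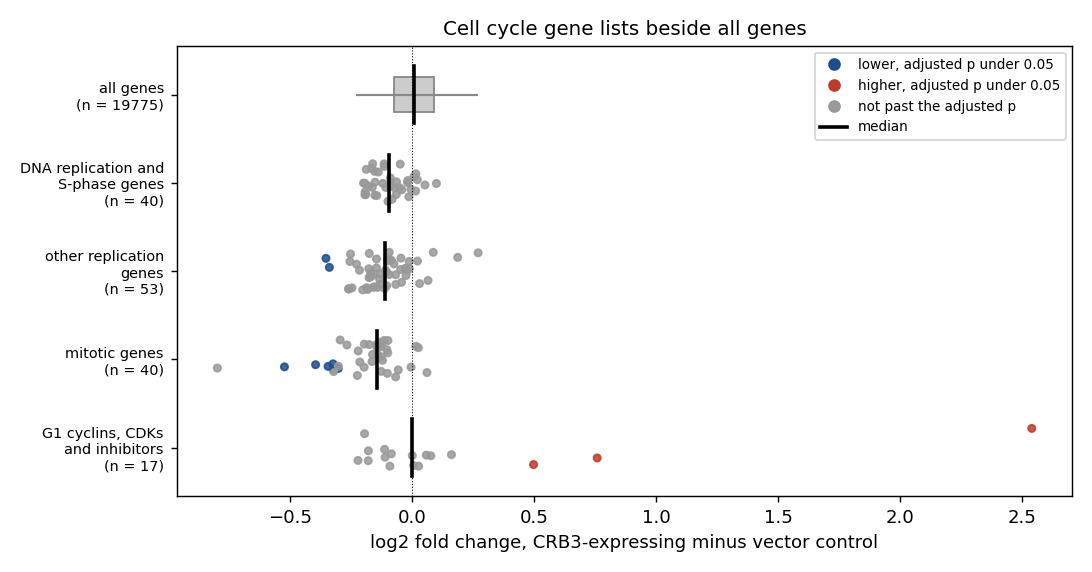
Log2 fold change (x axis, CRB3-expressing minus vector control) of the genes of 4 cell cycle lists, a point for each gene, blue where lower and red where higher at an adjusted p under 0.05 from limma; the box for all 19775 genes shows the quartiles and its line the central 90%, and black bars are medians. The medians of the DNA replication and S-phase genes (-0.095), the other replication genes (-0.11) and the mitotic genes (-0.15) lie left of that of all genes, and the point at the far right is CDKN1C (2.54).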

How the data were processed

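Total RNA of 3 CRB3-expressing and 3 vector control samples of MCF-10A cells was hybridized to 6 Human Genome U133 Plus 2.0 arrays. Background correction, normalization and summarization were done by the authors with RMA (Robust Multichip Average, R/BioConductor), which gave the deposited log2 values, used here unaltered. Tool versions and detection calls are not given in the sources used here. RMA compresses the differences of dim probe sets, and precision is limited by having 3 arrays per group.

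CRB3-expressing cells were compared with vector control cells over all 6 arrays by lmFit and eBayes of limma 3.58.1 (R 4.3.3) with Benjamini-Hochberg adjustment over 54613 probe sets, leaving out 62 control probe sets of the array. The criteria of the study, an adjusted p under 0.05 together with more than a 1.5-fold difference, were applied. Of the probe sets 41091 had 1 gene symbol, 1801 several and 11721 none. Symbols came from the platform annotation and were checked through Entrez identifiers against RefSeq (GRCh38.p14). A gene is its brightest single-gene probe set. The 40 members, the other gene lists and the motifs were chosen with earlier results of these data known. The limit for bright genes was set from the members. Values on every array are given for the 12 members with the smallest p and for the brightest member of each role. From other lists the called genes are named, or the 2 with the smallest p. The fit was tested on simulated data. Alternatives were the replicate number as a block, other variance models, other scalings, filters, array weights and probe set rules, another fold threshold, adjustment over genes, and leaving out each array in turn. Groups came from the sample titles. List genes with no single-gene probe set were not analysed here.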

Additional observations from a re-analysis of the deposited data

How the results depend on the processing

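The 40 genes kept 0 members past both criteria, higher and lower, under all 17 alternatives. Several of these could not have given another count. The lower fold threshold was applied to the main fit, in which 0 members reached the adjusted p. Alternatives that leave the fold changes unaltered, named next, keep a largest difference of 1.15-fold (MCM10). The median log2 fold change stayed negative under the 16 alternatives that give one, between -0.11 and -0.081, beside a median of all genes between -0.0063 and 0.010. It was -0.095 by construction with the replicate block, the trended and robust prior, the ordinary pooled variance, dim probe sets left out and adjustment over genes. These leave the fold changes of the 40 genes unaltered. At an adjusted p under 0.05 with no fold threshold, 5 were lower with a trended and robust prior (RRM1, MCM3, MCM4, MCM7 and MCM10, where 3.84% of all genes were lower), 2 with dim probe sets left out (RRM1 and MCM10, 5.40% of all genes), and 1, RRM1, with an ordinary pooled variance (0.617% of all genes) or with the mean over probe sets (2.84% of all genes), in place of 0. At an unadjusted p under 0.05, 6 were lower with the replicate block (7.79% of all genes), in place of 14. The count was 9 of the 32 genes that remain with shared probe sets left out (7.81%), and between 4 and 8 without any 1 array (6.73% to 7.63%). The count was 19 with the trended and robust prior (10.6%), 18 with the mean over probe sets (9.89%), and 16 with the ordinary pooled variance (8.33%) or with dim probe sets left out (13.2%). Under the other alternatives it was between 10 and 15 (8.32% to 9.46% of all genes). With the trended and robust prior or the ordinary pooled variance 1 was higher in place of 0, and the share of all genes higher was not counted in those fits. UHRF1 turned from 0.014 to values as low as -0.050 without vector control replicate 1 and -0.030 without CRB3-expressing replicate 2, and was at most 0.081 without another array. The cause of these changes was not tested. Arrays with the same replicate number did not vary together (correlations of their deviations from the group means -0.085, 0.064 and 0.029 over all probe sets, with no label that ties the numbers), and the paired fit lowers the residual degrees of freedom. Dim probe sets, which carry no detection calls, limit what the 6 probe sets under a mean of 6 can show.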
